A study of Mus musculus with 16 samples.

Results

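The insulin-like growth factor (IGF) genes described here are the ligand Igf1, the receptor Igf1r and the binding protein genes Igfbp2, Igfbp3, Igfbp4, Igfbp5 and Igfbp6. They were followed in RNA from adult mouse retina and newborn mouse cerebral cortex. Every probe set of the array that the platform annotation assigns to exactly 1 gene symbol, and that symbol to one of these genes, was taken. This gave 10 probe sets of the 12488 on the array, covering 6 of the 7 genes listed, among 8251 genes with a probe set of their own. Igfbp5 had none of its own: its probe set carries more than 1 symbol and was not analysed here.

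Each of the 16 arrays, 1-colour oligonucleotide arrays, received cRNA labelled with biotin and made from about 10 µg of total RNA. The retina RNA came from adult C57/B6 mice, per the first-site sample descriptions a pool of 350 animals. The cortex RNA came from mice at postnatal day 1, per the first-site descriptions a pool of 19. For the cortex the sample descriptions give C57/B6 and the design text gives Swiss-Webster, so that organ, age and possibly strain differ together between the groups and cannot be told apart. The first site hybridised 5 arrays per tissue and a further site, site 2, hybridised 3 per tissue. No treatment or engineered allele is given for any group. The stated purpose was to measure variation between replicates and between sites. Within a group the arrays are taken to be aliquots of a single pool, and the sites to share the pool of each tissue. Pool sizes are given for the first site only. The p-values then measure the technical spread between arrays and say nothing of the spread between animals. In such bulk RNA, fewer cells that make a transcript and less of it per cell cannot be told apart.

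IGF-I is a secreted peptide that supports growth, survival and differentiation of neurons and glia. It acts through the IGF-I receptor, a tyrosine kinase that recruits insulin receptor substrates and thereby the PI3K-AKT and RAS-MAP kinase routes. The IGF binding proteins are secreted carriers that bind IGFs with high affinity, hold them away from the receptor or deliver them to it, and release them when proteases cut the carrier. IGF-I is made in the central nervous system as well as in the liver, and the binding proteins are made by neural precursors, glia, vessels and meninges in patterns that differ from one binding protein to the next.

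The promoters of the receptor and of the 3 binding proteins that were lower in retina at the first site are shown because these are the genes whose tissue differences carry the results. Each is the 250 bases ahead of the annotated transcript start in RefSeq (GRCm38.p6), read 5′ to 3′ on the gene's strand. RefSeq promoters were found for 7 of 7 genes. They were searched on both strands for a TATA box (TATAAA), a GC box (GGGCGG) and an E box (CACGTG), none of which overlapped another here, and matches are in capitals. Igfbp2 has more than 1 annotated start, and the window ahead of the first listed is given. The windows are Igf1r at chr7:67952007-67952256 on the plus strand, Igfbp2 at chr1:72824230-72824479 on the plus strand, Igfbp3 at chr11:7213924-7214173 on the minus strand and Igfbp4 at chr11:99040994-99041243 on the plus strand.
Igf1r: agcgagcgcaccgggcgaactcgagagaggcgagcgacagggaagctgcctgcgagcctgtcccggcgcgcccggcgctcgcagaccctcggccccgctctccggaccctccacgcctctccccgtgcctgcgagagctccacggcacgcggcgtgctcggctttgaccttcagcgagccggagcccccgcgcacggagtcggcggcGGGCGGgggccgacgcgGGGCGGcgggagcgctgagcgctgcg
Igfbp2: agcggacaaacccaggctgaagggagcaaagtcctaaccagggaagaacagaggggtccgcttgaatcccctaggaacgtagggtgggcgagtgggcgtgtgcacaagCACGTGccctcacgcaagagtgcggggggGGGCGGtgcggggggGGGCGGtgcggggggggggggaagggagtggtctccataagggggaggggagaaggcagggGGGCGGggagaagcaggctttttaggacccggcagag
Igfbp3: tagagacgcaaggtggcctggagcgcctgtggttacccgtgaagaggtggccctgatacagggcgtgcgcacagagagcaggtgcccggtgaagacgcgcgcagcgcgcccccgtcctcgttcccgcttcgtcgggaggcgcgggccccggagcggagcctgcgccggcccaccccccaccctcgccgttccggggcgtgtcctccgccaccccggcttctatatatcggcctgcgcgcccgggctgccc
Igfbp4: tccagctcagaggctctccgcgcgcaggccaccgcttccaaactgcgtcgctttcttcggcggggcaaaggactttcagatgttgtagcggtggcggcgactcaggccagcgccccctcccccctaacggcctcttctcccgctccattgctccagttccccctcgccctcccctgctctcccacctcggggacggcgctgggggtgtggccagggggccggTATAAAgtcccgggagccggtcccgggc

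These windows differed in their letters. The Igf1r window held 2 GC boxes, 42 CpG dinucleotides and 77.6% G or C, above 97.6% of the promoters in the table in G and C content. The Igfbp2 window held 3 GC boxes and 1 E box with 14 CpG and 67.2% G or C. The Igfbp4 window held a TATA box whose first base lies at -28 from the start. The Igfbp3 window held none of the 3 exact motifs, with 32 CpG. Only the letters TATAAA were searched for a TATA box, so the letters tatatat near the end of the Igfbp3 window were not marked. Both windows were rich in G and C, at 69.2% for Igfbp4 and 73.2% for Igfbp3. Of 32851 promoters of the same length in the table, 12.4% held TATAAA, 32.7% held GGGCGG and 6.02% held CACGTG, the median G and C content was 52.4% and the median number of CpG was 6. The Igf1 window had 52.8% G or C and none of the motifs. The Igfbp6 window had 49.6% G or C with TTTATA at -148, which is TATAAA on the opposite strand. On the chromosome, Igfbp2 and Igfbp5 are neighbours, and the neighbour of Igfbp3 is Igfbp1, another binding protein gene.

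Tissue identity was checked on marker genes. All 6 measured rod photoreceptor markers passed the limma test toward retina at each site, and their summed scaled intensity was 29370 to 41748 on the 8 retina arrays and 76.2 to 106 on the 8 cortex arrays. All 6 newborn cortical neuron markers were lower in retina, with sums of 1304 to 1526 against 14438 to 27772. Levels below are intensities scaled so that the median probe set of each array is 100. The deposited array medians ran from 45.7 to 216 and 68.5% to 78.8% of probe sets lay above background, the highest of 13 control probe sets with no added target on the same array, a scaled 12.6 to 37.0. Cortex replicate 2 of site 2 stood apart from the others. It had the lowest median. Its log2 values correlated at 0.940 and 0.945 with the other cortex arrays of site 2, which correlated at 0.989 with each other. Its 3′ to 5′ intensity ratio over the Gapdh control probe sets was 1.66, against 0.76 to 0.95 on the other arrays. Over the beta-actin control probe sets that ratio was 1.85 on this array. It was 1.5 to 1.79 on the retina arrays and 1.04 to 1.26 on the other cortex arrays, so it differed by tissue. Some site 2 tissue differences are given without cortex replicate 2 too, for the members and the pathway genes named for the size of their difference. These are the ones whose call it changes and the called ones that it changes by over 1.5 times. Values uncalled both ways could also move, as Igfbp4 by 101570_at did from -0.03 to 0.30.

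**Figure D1:**
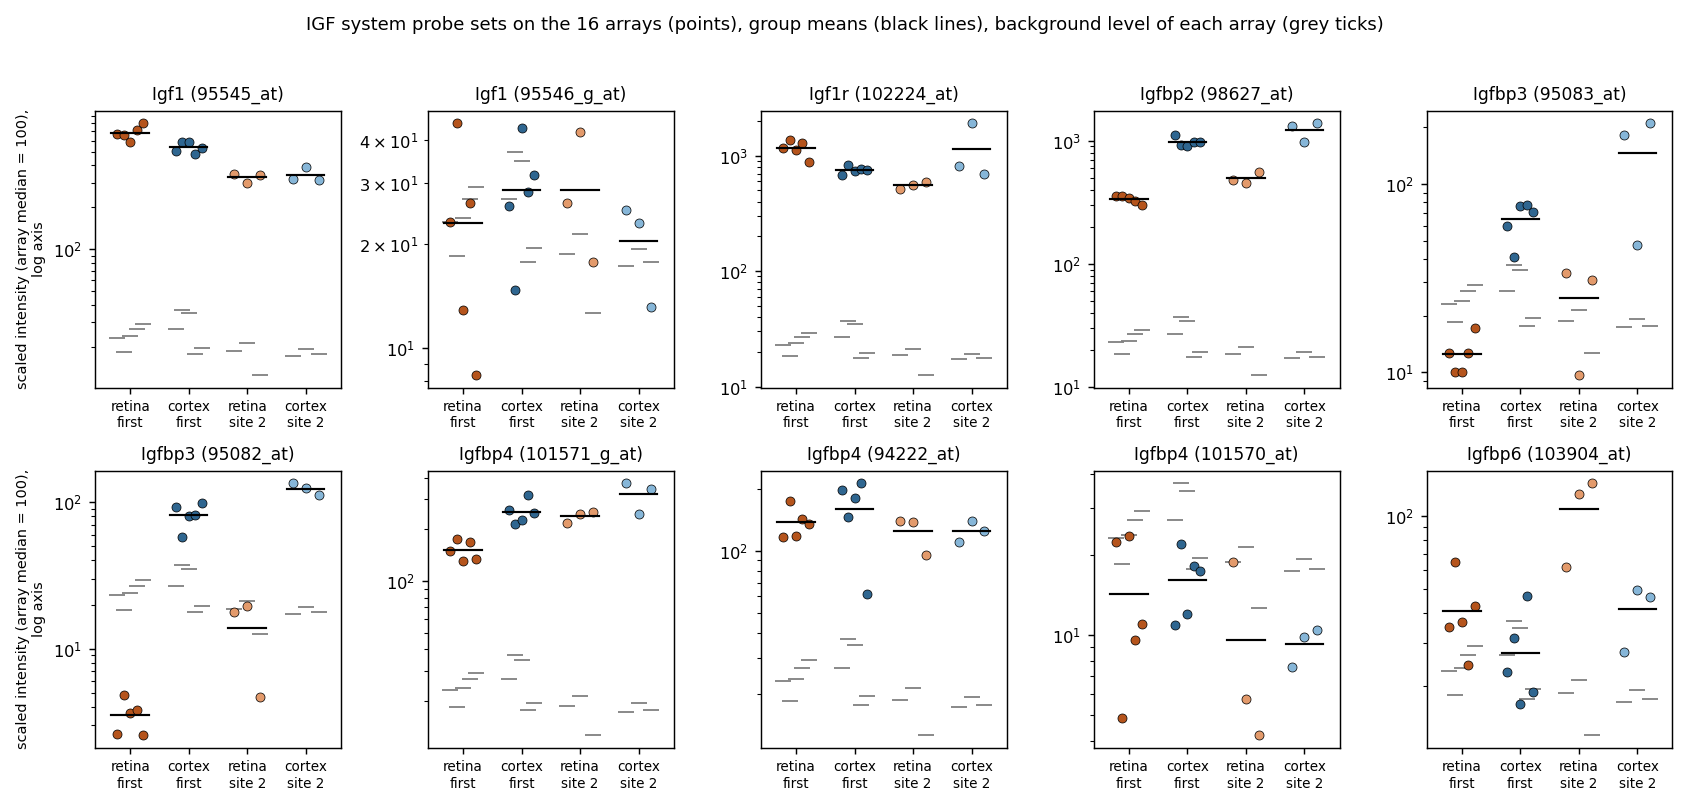
Scaled intensity (array median = 100, log axis, a separate range for each panel) of the 10 probe sets on each of the 16 arrays, by tissue and site. Points are arrays, black lines group means and grey ticks the background level of each array. Igfbp2 is lower in retina than in cortex at both sites, Igf1r is higher in retina at the first site and lower at site 2, and the retina values of Igfbp3 at the first site lie under the background ticks.

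Between the tissues, 6 of the 10 probe sets passed the limma test at the first site (adjusted p under 0.05), 2 higher and 4 lower in retina. Of all 12422 probe sets tested, 47.1% passed there, 21.9% higher and 25.2% lower, so the members' share was not far from that of the array as a whole. At site 2, 5 of 10 passed, 1 higher and 4 lower, against 32.5% of all probe sets (16.7% higher, 15.9% lower), and without cortex replicate 2 the number was 6, against 47.9% of all probe sets in the same fit. The members' number was 3 without retina replicate 2 or retina replicate 3 of that site. Retina and cortex arrays were fully apart for 6 of the 10 at the first site, against 37.9% of all probe sets (retina higher 17.4%, lower 20.4%), and for 5 of the 10 at site 2, against 44.2% (22% and 22.2%). The members' median log2 difference, retina minus cortex, was -0.20 at each site, beside -0.05 and -0.02 over all probe sets, and their median absolute difference was 0.50 and 0.60, beside 0.31 and 0.36. The members called at both sites were Igf1r, with opposite signs, and Igfbp2 and both Igfbp3 probe sets, with the same sign.

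**Figure D2:**
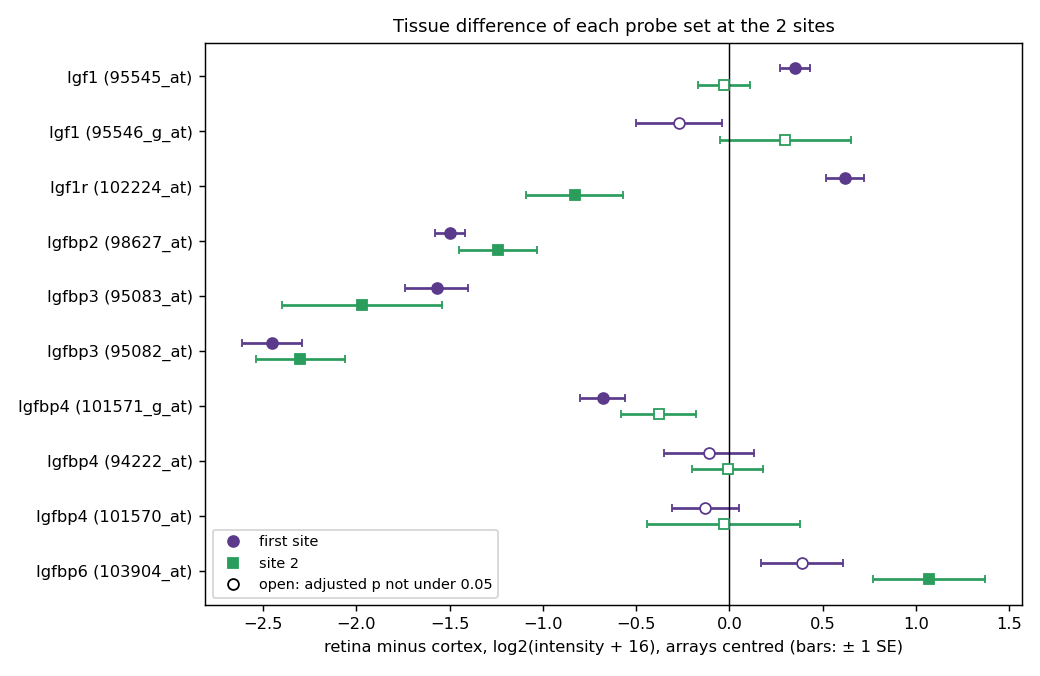
Difference between retina and cortex on the log2(intensity + 16) scale for each of the 10 probe sets, with circles for the first site (5 arrays per tissue) and squares for site 2 (3 per tissue), bars of 1 SE, and filled symbols for a limma adjusted p under 0.05. Igfbp2 and both Igfbp3 probe sets lie left of 0 at both sites, and Igf1r lies at 0.62 at the first site and at -0.83 at site 2.

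Igf1, the ligand, was read by 95545_at. On the first-site retina arrays its scaled intensity was 669, 659, 589, 716 and 800, and on the first-site cortex arrays 503, 585, 588, 484 and 534. At site 2 it was 344, 300 and 338 in retina and 319, 389 and 313 in cortex. Every first-site array lay above every site 2 array, and the tissues did not overlap at the first site, by the narrow margin between 589 and 588, and did overlap at site 2. At the first site Igf1 was higher in retina by 0.35 ± 0.08 (log2, SE; limma adjusted p = 0.0019), with means of 687 ± 78.0 and 539 ± 47.2 (SD, n = 5 each). The site 2 difference was -0.03 ± 0.14 (adjusted p = 0.97), and the difference between those differences was -0.37 ± 0.14 (adjusted p = 0.17), which does not show that the tissue difference itself changed with the site. In order of level the groups were first-site retina, first-site cortex, then cortex and retina of site 2, which did not differ beyond their spread.

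The gap between sites was larger for Igf1 than the gap between tissues. Site 2 minus first site was -1.04 ± 0.10 in retina (log2, limma adjusted p = 4.2e-07) and -0.66 ± 0.10 in cortex (adjusted p = 0.00024). The other Igf1 probe set, 95546_g_at, was near background, above it on 1 of 5 and 3 of 5 first-site arrays (retina and cortex) and on 3 of 3 and 2 of 3 arrays of site 2. Its differences of -0.27 ± 0.23 and 0.30 ± 0.35 did not pass the limma test (adjusted p = 0.38 and 0.65). It did not track 95545_at, with a Pearson r of -0.06 over the 16 arrays, so the Igf1 result is that of a single probe set.

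Igf1r, which encodes the IGF-I receptor, was the member whose tissue difference depended on the site. Its scaled intensity (102224_at) on the first-site arrays was 1177, 1355, 1112, 1291 and 887 in retina and 679, 837, 731, 762 and 746 in cortex. The site 2 arrays gave 514, 563 and 596 in retina and 810, 1911 and 698 in cortex. Retina was above cortex on every array at the first site and below it on every array at site 2, and cortex replicate 2 of site 2 was the highest of all 16. The retina minus cortex difference was 0.62 ± 0.10 at the first site (log2, SE; limma adjusted p = 7.2e-05) and -0.83 ± 0.26 at site 2 (adjusted p = 0.033). The test of the change itself gave -1.45 ± 0.26 (adjusted p = 0.0028), and of the 10 probe sets 1, Igf1r, passed that test, against 3.36% of all probe sets (2.07% with a positive value, 1.3% with a negative one).

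The array that stood apart set the size of the site 2 value and not its sign. Without it the cortex mean at site 2 was 754 (n = 2) in place of 1139 ± 670 (SD, n = 3), still above all 3 retina arrays, whose mean was 558 ± 41.0. The site 2 difference was then -0.48 ± 0.10 (adjusted p = 0.003) and the interaction -1.10 ± 0.17 (adjusted p = 0.00055). The site 2 call was lost when any 1 of the 3 retina arrays of that site was left out, with differences of -0.78, -0.84 and -0.87 (adjusted p = 0.11, 0.083 and 0.072), and also with a pseudocount of 1 (adjusted p = 0.089), with scaling before the pseudocount (0.1), without the intensity trend (0.092) and without centring (0.59). The interaction passed with each array left out in turn (-1.67 to -1.10, adjusted p 0.00055 to 0.012) and was lost without centring (-1.59, adjusted p = 0.093). Between sites, Igf1r fell by 1.04 ± 0.18 in retina from the first site to site 2 (limma adjusted p = 0.00023) and differed by 0.42 ± 0.18 in cortex (adjusted p = 0.13), which became 0.07 without the array that stood apart. The order of levels was first-site retina, cortex of site 2, first-site cortex and retina of site 2. The middle groups overlapped, and so did the upper ones.

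**Figure D3:**
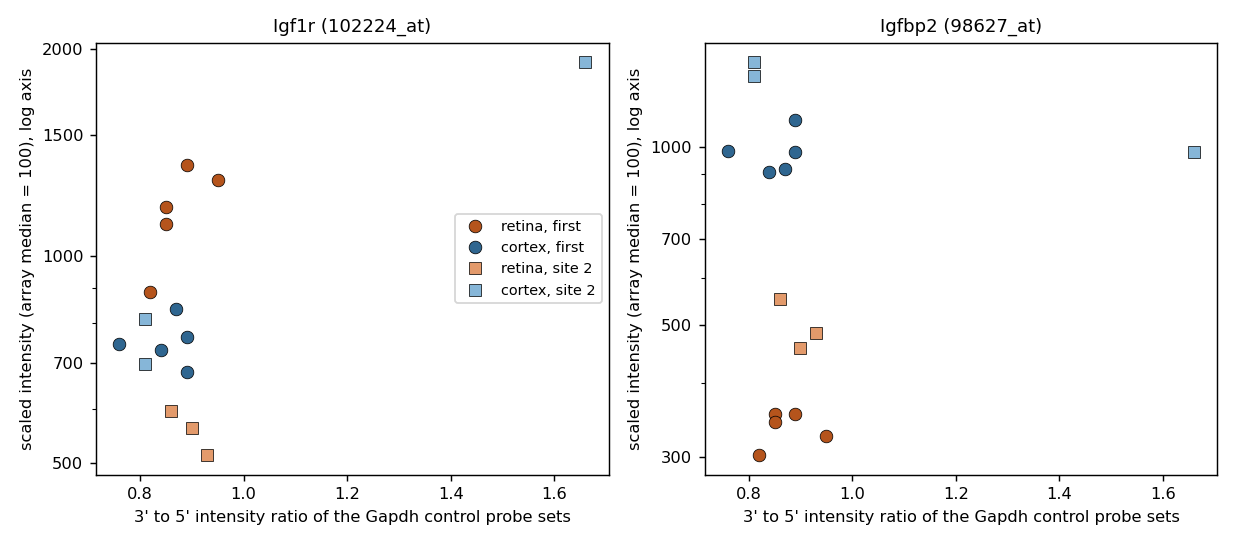
Scaled intensity (array median = 100, log axis) of Igf1r and Igfbp2 against the 3′ to 5′ intensity ratio of the Gapdh control probe sets, 1 point per array, circles for the first site and squares for site 2. Cortex replicate 2 of site 2 lies alone at a ratio of 1.66, with an Igf1r level of 1911 and an Igfbp2 level of 981, and the other arrays lie between 0.76 and 0.95.

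The part of the Gapdh or beta-actin ratio in these levels was not tested. Within a group of replicate arrays, Igf1r varied more than the typical probe set in first-site retina and in site 2 cortex: its SD on the centred log2 scale was 0.25 and 0.61, against medians over all probe sets of 0.19 and 0.35. In first-site cortex and site 2 retina it varied less, at 0.10 and 0.09 against 0.18 and 0.14.

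Igfbp2, a binding protein abundant in neural precursors and in fluid-facing epithelia, was lower in retina at both sites. On the first-site arrays it (98627_at) read 355, 354, 344, 325 and 302 in retina and 1111, 919, 908, 981 and 985 in cortex, and at site 2 it read 485, 458 and 554 in retina and 1316, 981 and 1388 in cortex. No retina array of either site reached the lowest cortex array of either site. Retina minus cortex was -1.50 ± 0.08 at the first site (log2, SE; limma adjusted p = 1.1e-10), with means of 336 ± 22.4 and 981 ± 80.7 (SD, n = 5 each), a ratio of cortex to retina of 2.92. At site 2 the difference was -1.24 ± 0.21 (adjusted p = 0.0011), with means of 499 ± 49.6 and 1228 ± 217 (SD, n = 3 each) and a ratio of 2.46, and without cortex replicate 2 it was -1.48 ± 0.11. The interaction, 0.26 ± 0.20, did not pass (adjusted p = 0.57). Ordered by level, cortex of site 2 came first, then first-site cortex, whose arrays overlapped it, then retina of site 2 and first-site retina, which did not overlap. Retina of site 2 was above first-site retina by 0.54 ± 0.14 (limma adjusted p = 0.0045), a call lost with quantile normalization (0.33, adjusted p = 0.056) and without centring (0.48, adjusted p = 0.55).

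Igfbp3, the main IGF carrier of the circulation together with a cofactor protein, was above background in cortex and at or close to background in retina. The probe set 95082_at read 92.3, 57.4, 79.8, 81.3 and 98.7 on the first-site cortex arrays and 134, 124 and 112 on those of site 2. On the retina arrays it read 2.63 to 4.86 at the first site and 17.7, 19.4 and 4.68 at site 2, at or under background on all 8. With the dim side raised to background, retina was at least 3.35-fold lower at the first site (log2 difference -2.45 ± 0.16, limma adjusted p = 2.1e-09) and at least 7.19-fold lower at site 2 (-2.30 ± 0.24, adjusted p = 5.1e-05). These bounds depend on the background of each array, so they have no order between sites.

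The second Igfbp3 probe set, 95083_at, gave the same direction. It read 59.6, 41.2, 76.3, 77.0 and 70.9 in first-site cortex and 183, 47.3 and 210 in cortex of site 2, where the low value is again cortex replicate 2. In retina it was under background on all 5 first-site arrays (10.1 to 17.1) and above it on 2 of 3 at site 2 (33.7, 9.69 and 30.8). Tissues did not overlap at either site. Retina was at least 2.64-fold lower at the first site (-1.57 ± 0.17, limma adjusted p = 6.1e-07), and at site 2 the difference was -1.97 ± 0.43 (adjusted p = 0.0055), or -2.51 ± 0.27 without cortex replicate 2. Over the 16 arrays the Igfbp3 probe sets had a Pearson r of 0.88, as a description of 2 tissues.

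Igfbp4, a binding protein known mainly for restraining IGF action, was lower in retina by 1 of its 3 probe sets. The probe set 101571_g_at read 149, 176, 130, 168 and 134 in first-site retina and 258, 215, 226, 315 and 248 in first-site cortex. At site 2 it read 219, 245 and 251 in retina and 370, 247 and 343 in cortex. The tissues were apart at the first site and overlapped at site 2 through cortex replicate 2. The first-site difference was -0.68 ± 0.12 (log2, SE; limma adjusted p = 1e-04). The site 2 difference was -0.38 ± 0.20 (adjusted p = 0.20), and without cortex replicate 2 it was -0.60 ± 0.11 (adjusted p = 0.00096). By level, cortex of site 2 came first, then first-site cortex and retina of site 2, each overlapping its neighbour, and first-site retina lay below all of them.

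The other Igfbp4 probe sets gave no call. With 94222_at the first-site retina mean was 139 ± 23.9 and the cortex mean 161 ± 60.9 (SD, n = 5 each). Cortex replicate 5 read 61.7 and the other cortex arrays 146 to 214. The difference was -0.11 ± 0.24 (limma adjusted p = 0.76) and became -0.38 ± 0.13 (adjusted p = 0.028) without that array. At site 2 the means were 125 ± 25.3 and 126 ± 15.1 (SD, n = 3 each). The third probe set, 101570_at, was at or under background on 14 of 16 arrays and has no order between groups. Pearson r over the 16 arrays was 0.01 between 101571_g_at and 94222_at, so the probe sets annotated to this gene did not report the same pattern.

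Igfbp6, a binding protein that prefers IGF-II to IGF-I, had its highest levels in retina of site 2, read by 103904_at. It read 61.5, 123 and 136 there and 27.6, 49.7 and 46.7 in cortex of site 2, with no overlap. At the first site it read 35.1, 64.9, 36.8, 24.4 and 42.9 in retina, above background on 4 of 5 arrays, and 22.9, 31.7, 16.9, 46.8 and 19.0 in cortex, above background on 1 of 5. The tissues overlapped at the first site, where the difference was 0.39 ± 0.22 (limma adjusted p = 0.16). At site 2 it was 1.07 ± 0.30 (adjusted p = 0.02), or 1.27 ± 0.29 without cortex replicate 2, and the interaction was 0.69 ± 0.39 (adjusted p = 0.40), so the difference between the sites' values did not pass its test. The site 2 call was lost without retina replicate 2, retina replicate 3 or cortex replicate 1 of that site (differences of 0.95, 0.89 and 0.85, adjusted p = 0.083, 0.093 and 0.059), without the intensity trend (adjusted p = 0.052) and without centring (1.01, adjusted p = 0.57). Cortex of site 2 and first-site retina stood next in level with near-equal means, 41.3 (27.6 to 49.7, n = 3) and 40.8 (24.4 to 64.9, n = 5), and first-site cortex came last at 27.5 (16.9 to 46.8, n = 5).

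The retina and cortex RNA gave different levels at the first site and site 2 for several members. That both sites read the same pools is assumed, as pool sizes are given for the first site only. In retina, 6 of 10 probe sets passed the limma test between sites, 4 higher and 2 lower at site 2, against 35.7% of all probe sets (23.2% higher, 12.5% lower). In cortex 2 of 10 passed, 1 higher and 1 lower, against 16.7% (10.3% higher, 6.4% lower). Leaving out cortex replicate 2 of site 2 raised the cortex number to 5, against 40.1% of all probe sets in that fit, by adding Igfbp2 (0.52), Igfbp4 by 101571_g_at (0.53) and Igfbp4 by 101570_at (-0.67, at or under background on most arrays), and it was 1 without any one of the first-site cortex arrays 1 to 4 or cortex replicate 1 of site 2. The 2 that were lower at site 2 in retina were Igf1 and Igf1r. The 4 that were higher were Igfbp2, Igfbp4 by 101571_g_at (0.61 ± 0.16, adjusted p = 0.0045), Igfbp6 (1.11 ± 0.28, adjusted p = 0.0036) and Igfbp3 by 95082_at (0.67 ± 0.20, adjusted p = 0.015, at or under background on all retina arrays of both sites). The last of these was lost without retina replicate 1 or 2 of site 2 (0.59 and 0.51, adjusted p = 0.069 and 0.11). In cortex the calls were Igf1, lower, and Igfbp3 by 95083_at, higher at site 2 by 0.91 ± 0.31 (adjusted p = 0.048). The latter call was lost when any 1 cortex array other than cortex replicate 2 of site 2 was left out. Without that array the difference was 1.45 ± 0.25 (adjusted p = 0.00033). The members' median site difference was 0.38 in retina and 0.30 in cortex, beside 0.04 and 0.01 over all probe sets.

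The IGF pathway beyond the members was read from lists of genes that make, bind, cut or transmit the IGF signal, of which 62 were measured. At the first site 14 passed the limma test as higher in retina, 20 as lower and 28 did not pass, and at site 2 the numbers were 11, 15 and 36. The share called was 54.8% and 41.9%, beside 47.1% and 32.5% of all probe sets. Each gene of the lists was read by its brightest probe set, while the values over all probe sets include every dim one. The comparisons with all probe sets given here are therefore not like for like. Whether the lists exceed probe sets of similar brightness was not tested. Without cortex replicate 2 of site 2 the site 2 numbers were 12, 19 and 31, beside 47.9% of all probe sets. The same call was made at both sites for 23 genes, and 0 genes of the lists passed the limma interaction test, 11 having an unadjusted p under 0.05. Without the same array 4 passed it, namely Pik3r1 (-1.43), the insulin receptor substrate Irs2 (-1.34), Gh (-0.64) and Nras (0.55). The median difference of the 62 genes was -0.12 and -0.08. Over all probe sets it was -0.05 and -0.02.

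Of the 2 other ligand genes measured, Igf2, a growth factor of fetal and newborn tissue, was lower in retina and insulin (Ins2) was not called. Igf2 differed by -0.95 ± 0.10 at the first site and -1.13 ± 0.21 at site 2 (limma adjusted p = 6.3e-07 and 0.0021), with means of 1249 ± 184 and 2424 ± 207 (SD, n = 5 each) at the first site. Its other probe set was not called, at -0.25 and -0.14. Of the 3 related receptors, Igf2r, which clears IGF-II, differed by -0.22 ± 0.08 at the first site (adjusted p = 0.044) and by -0.36 ± 0.15 at site 2 (adjusted p = 0.09; -0.39 ± 0.11 and 0.016 without cortex replicate 2).

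Among 9 further IGF-binding or IGFBP-related genes, 3 were higher and 2 lower in retina at each site. The lower ones were Igfbpl1, a binding protein-like gene of developing brain, at -3.67 ± 0.16 and -4.28 ± 0.16, and Ccn3, a matricellular gene with an IGFBP-like domain, at -3.67 ± 0.16 and -4.49 ± 0.35 (limma adjusted p from 7.4e-12 to 5.9e-06). Igfbpl1 averaged 402 ± 38.5 (SD, n = 5) in first-site cortex and was above background on 1 of 5 retina arrays. None of the retina arrays of site 2 rose above background, which puts Igfbpl1 at least 26.7-fold lower there than in cortex. Ccn3 was at least 11.8-fold lower at the first site and 26.3-fold at site 2. The latter bound includes cortex replicate 2, and Ccn3 averaged 536 ± 406 (SD, n = 3) in cortex of site 2. Without that array the Ccn3 mean there was 301 and the difference -4.01 ± 0.18. Kazald1, a further IGFBP-related gene, was higher in retina, at 1.76 ± 0.19 and 1.36 ± 0.36 (adjusted p = 8.5e-07 and 0.015).

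The proteases that can cut IGF binding proteins, with their inhibitors, held 8 measured genes, of which 5 passed toward retina and 1 toward cortex at the first site, and 3 and 1 at site 2. Among the 5, Mmp3 was at or under background on every array of both tissues, so its call (0.50) rests on values not above background. Mmp9, a matrix metalloproteinase, was higher by 1.97 ± 0.18 and 1.97 ± 0.20 (limma adjusted p = 1.2e-07 and 4.1e-05). Adam9, a membrane metalloproteinase, was higher by 1.92 ± 0.10 and 1.94 ± 0.14, with a first-site mean of 523 ± 49.4 in retina against 128 ± 13.3 (SD, n = 5 each). The serine protease Htra1, which itself carries an IGFBP-type domain, was higher by 1.57 ± 0.08 and 1.91 ± 0.15 (adjusted p = 6.2e-11 and 7.5e-06). The second Mmp9 probe set gave 0.47 and 0.38, of which only the first-site value passed (adjusted p = 0.047).

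Of the 8 genes of the growth hormone axis, the endocrine driver of Igf1 in the liver, 1 was higher and 3 lower at the first site and 2 and 3 at site 2. Gh, growth hormone itself, differed by -2.68 ± 0.09 and -3.16 ± 0.18, with first-site means of 173 ± 23.5 and 1191 ± 117 (SD, n = 5 each). Gh was read by 1 probe set with no other to compare, and whether it detects the Gh transcript was not tested. Socs2, a feedback inhibitor of growth hormone signalling, differed by -2.18 ± 0.10 and -2.24 ± 0.24 (limma adjusted p = 1.1e-11 and 5e-05). Stat5a, a transcription factor of that route, was higher by 0.78 ± 0.08 and 0.97 ± 0.20 (adjusted p = 7.3e-07 and 0.0041), while its other probe set gave 0.45 and 0.11, the latter not called (adjusted p = 0.72).

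Downstream of the receptor, calls went in both directions. Among 10 adaptors, 1 was higher and 4 lower at each site, though the 4 were not all the same genes. Grb2, Sos1 and the phosphatase Ptpn1, called at both sites, differed by -0.96 ± 0.09, -0.80 ± 0.13 and -0.78 ± 0.11 at the first site. Ptpn11 was called only at the first site (-0.46). There it was at or under background on all retina arrays and above it on 1 of 5 cortex arrays. Irs2 was called only at site 2 (-1.19). Among 19 PI3K, AKT and TOR genes, 4 were higher and 6 lower at the first site, and 2 and 3 at site 2. Pik3cd, a catalytic subunit, was at least 4.66-fold lower in retina at the first site, Pik3r1, a regulatory subunit, differed by -1.0 ± 0.07 and -1.96 ± 0.33, and the kinase Akt1 by -0.98 ± 0.07 at the first site, with -0.35 ± 0.20 at site 2 (limma adjusted p = 0.24; interaction 0.066). Without cortex replicate 2 the site 2 value of Akt1 was -0.59 ± 0.09 (adjusted p = 0.00045). The other Pik3cd probe set gave -1.40 and, uncalled, -0.71 (adjusted p = 0.33). Of the 4 measured genes of the MAP kinase route, Nras, a small GTPase, differed by -2.38 ± 0.08 and -2.31 ± 0.34, and the kinase Map2k1 was higher by 0.82 ± 0.12 and 1.09 ± 0.17. The other Nras probe set was called at both sites (-1.57 and -1.38) and the other Map2k1 probe set at neither (0.17 and -0.08). Map2k2, a relative of Map2k1, differed by -0.43 ± 0.08 at the first site, with -0.40 ± 0.15 (adjusted p = 0.066) at site 2, and -0.35 ± 0.12 (adjusted p = 0.032) there without cortex replicate 2.

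**Figure D4:**
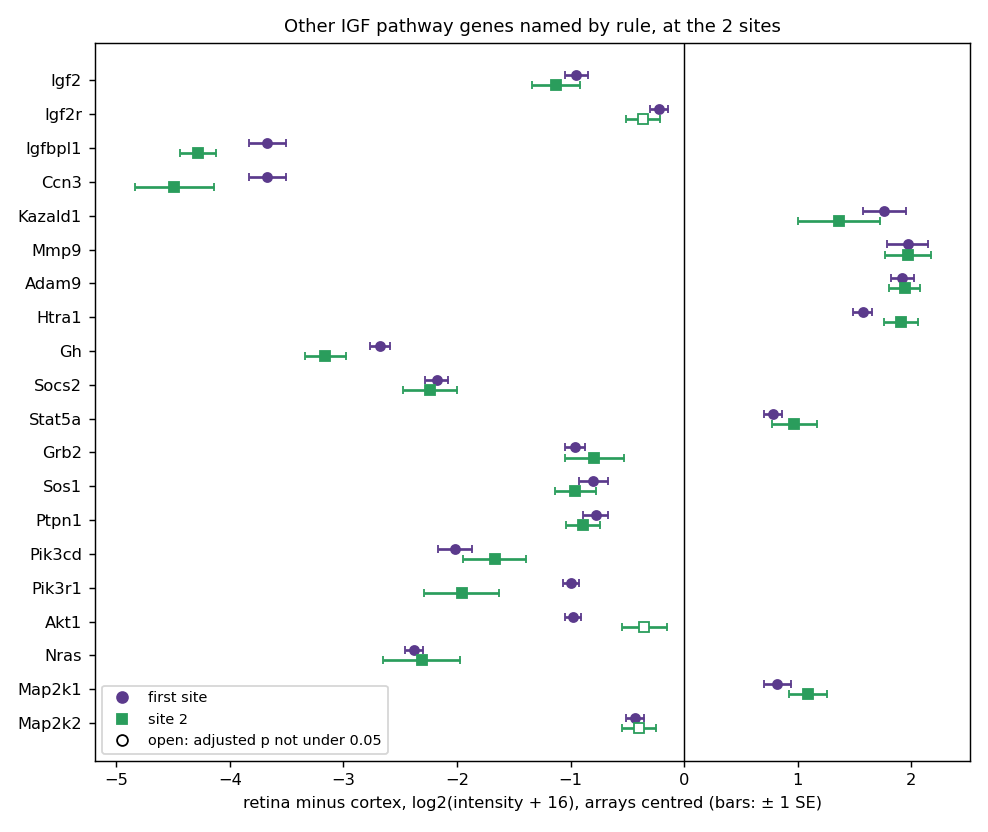
Difference between retina and cortex on the log2(intensity + 16) scale for 20 IGF pathway genes outside the members, circles for the first site and squares for site 2, bars of 1 SE, filled where the limma adjusted p is under 0.05. Igfbpl1, Ccn3 and Gh lie farthest to the left, and Kazald1, Mmp9, Adam9 and Htra1 lie between 1.36 and 1.97.

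Markers of other cell types in these tissues also differed between the pools. The meningeal fibroblast list was lower in retina for 6 of 8 genes at each site, with sums of 889 to 1229 in first-site retina and 1823 to 1982 in first-site cortex, and 538 to 605 against 1423 to 2191 at site 2. Its member Dcn differed by -2.19 and -2.89 and Foxc1 was at or under background on every array, as was Aldh1a2 on every first-site array, though both count among the 6 there. Of 8 endothelial genes, 5 were lower and 2 higher at each site, with sums of 1082 to 1293 on the retina arrays and 1522 to 1754 on the cortex arrays. All 3 red blood cell genes were lower in retina, with sums of 732 to 860 against 3241 to 4924. Igfbp2 and Igfbp3 were lower in retina at both sites, while the marker lists went both ways. Igfbp4 by 101571_g_at was called lower at the first site, and at site 2 only without cortex replicate 2. At the first site 5 of 6 Mueller glia genes and 6 of 7 retinal pigment epithelium genes were higher in retina. All measured genes of the cone (3), ganglion cell (5), and amacrine and horizontal cell (6) lists were too. The choroid plexus and astrocyte lists each had 2 higher and 1 lower, and radial glia and progenitors 1 higher and 4 lower. Mural cells had 3 of 6 lower and the oligodendrocyte lineage 1 of 3. Some genes count in 2 lists: Rlbp1 (Mueller glia, pigment epithelium), Aqp4 (Mueller glia, astrocyte) and Pax6 (amacrine and horizontal cell, radial glia). Pax6 is the 1 higher radial glia gene. At site 2, 4 of 5 ganglion cell genes were higher and 0 of 4 astrocyte genes were called (1 without cortex replicate 2). The part of any list in the members' differences was not tested. Of 8 microglia and macrophage genes, 4 were lower at the first site and 1 at site 2 (2 without cortex replicate 2), with sums of 913 to 1123 in retina and 1143 to 1381 in cortex and Aif1 at or under background in 3 of 4 groups.

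For the brightest probe set of each member, the genes with the most similar profile were sought by Pearson r of centred log2 values over the 16 arrays. That probe set was 95545_at for Igf1, 95083_at for Igfbp3 and 101571_g_at for Igfbp4, and the other probe sets of these genes were not used. The r values are a description over arrays that are taken to share 2 RNA pools and that come from 2 sites. Igfbp2 was most like Shisa5, Syt5 and Rasip1 (r = 0.990, 0.989 and 0.987), and Igfbp3 was most like Nnmt, Wdr26 and Pou3f3 (0.959, 0.957 and 0.942). For Igfbp4 they were Kif3a, Twf2 and Ryk (0.962, 0.961 and 0.956). Igf1 was nearest to C1qtnf1, Jkamp and Sct (0.963, 0.962 and 0.958). The nearest profiles of Igf1r were less close, Cdkn1b, Tpgs2 and Cmtr2 (0.882, 0.859 and 0.833), as were those of Igfbp6, Sys1, Adcy8 and Ephx1 (0.865, 0.862 and 0.856).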

How the data were processed

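Arrays were hybridised at the first site (5 per tissue) and site 2 (3 per tissue). The authors deposited linear intensities, 1 per probe set and array, so the probes of a probe set had already been summarised; for the algorithm, background handling and scaling the sources used here say nothing. The members and gene lists were chosen with earlier results of these data known. Names are those of the platform annotation, updated to RefSeq (GRCm38.p6): of 12422 tested probe sets, 10833 had 1 symbol, 396 had several and 1193 are unnamed here, and the 66 controls were left out.

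Values were turned into log2(intensity + 16), which understates changes of dim probe sets, and the median of each array was subtracted. limma 3.58.1 in R 4.3.3 (lmFit, eBayes with an intensity trend; two-sided, Benjamini-Hochberg over all 12422, threshold 0.05) was fitted to each site alone for the tissues and to all 16 arrays for the interaction and the site differences, and was tested on simulated data. A fold is a lower bound where background, a level chosen after seeing the data, was not exceeded on any array of the dimmer group. Pathway genes named are up to 3 per list with the largest first-site difference among those called, by their brightest probe set. Others are named where they qualify a count. The number of arrays limits the precision. Alternatives were other pseudocounts, no centring, quantile normalization, scaling before the pseudocount, a signal filter and no trend. A replicate block, a single fit and leaving out each array of the groups compared were also run. The alternatives of the site differences and of the pathway lists were chosen after seeing the data.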

Additional observations from a re-analysis of the deposited data

Results flagged for a closer look

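The tissue difference of Igf1r changed with the site by -1.45 (log2; limma interaction, adjusted p = 0.0028): every retina array was above every cortex array at the first site and below every one at site 2. It was the only 1 of the 10 interactions tested for the members that passed. In the 20 member groups of 5 arrays, Dixon's test at its 95% critical value, which sets the gap of the highest or lowest array against the whole range of the centred log2 values, marked 0 arrays, the low Igfbp4 value of first-site cortex replicate 5 (94222_at) included, although leaving that array out changes a call. The groups of 3 arrays were not examined.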

How the results depend on the processing

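The numbers are probe sets of the 10 called with limma. At the first site the 6 calls became 4 when only probe sets above the median signal were tested, which left 5 members, and 6 to 7 with an array left out. At site 2 the 5 calls became 2 without centring, 2 of 5 tested with the signal filter, 3 without the intensity trend, and 3 to 6 with an array left out. The signal filter keeps only the brighter probe sets. Member counts with this filter therefore cannot be read against the shares of all probe sets given above, which are for the unfiltered array. The interaction call was lost without centring (0 calls, 1 unadjusted p under 0.05; Igf1r -1.59, adjusted p = 0.093) and held with each array left out (1 to 1). Between sites in retina the 6 calls became 1 without centring and 5 to 6 with an array left out. In cortex the 2 calls became 0 without centring (0 at an unadjusted p under 0.05), 1 with a pseudocount of 1, with quantile normalization, with the signal filter and without the trend, and 1 to 5 with an array left out. Uncentred values carry the 4.73-fold range of array medians, and all calls at site 2 then fell from 4043 to 781, interaction calls from 418 to 34 and site calls from 4437 to 290 in retina and from 2076 to 79 in cortex. Interaction calls were 255 without the trend and 212 to 671 with an array left out, and cortex site calls rose to 4976 without cortex replicate 2 of site 2. Igfbp2 and both Igfbp3 probe sets kept their sign under every alternative run for the tissue comparisons, where tested, and their calls too except Igfbp2 at site 2 without centring (-1.29, adjusted p = 0.27). Uncalled values turned sign for Igfbp4 101570_at (0.05 with a pseudocount of 50 and 0.03 with quantile normalization at site 2; interaction -0.04 without centring), Igfbp4 94222_at (interaction -0.04 without centring) and Igfbp3 95082_at (interaction -0.08 with a pseudocount of 50). With an array left out they also did for Igf1 95545_at at site 2 (-0.07 to 0.04), Igf1 95546_g_at (-0.03 to 0.56 at site 2; cortex between sites -0.58 to 0.01), Igfbp4 94222_at (-0.38 to 0.01 at the first site, -0.10 to 0.15 at site 2, interaction -0.03 to 0.37, retina between sites -0.23 to 0.02), Igfbp4 101570_at (-0.25 to 0.30 at site 2, interaction -0.12 to 0.43) and Igfbp3 95082_at (interaction 0.00 to 0.39); the cause was not tested. With the replicate number as a block the calls were 6, 5 and 1 for the first site, site 2 and the interaction, as without it. Arrays of the same number did not deviate together (correlations of -0.187 to 0.039 at the first site and 0.011 to 0.08 at site 2), so the block is not a pairing. Levels near background limit Igfbp3 in retina, Igfbp6, Igf1 95546_g_at and Igfbp4 101570_at.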
